A study of Ovis aries with 30 samples.

Results

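The liver takes up copper, zinc and manganese from blood, stores them or passes them on, and returns copper and manganese to bile. The 10 genes described here, ATP7B, ATOX1, COMMD1, SLC31A1, CP, MTF1, SLC30A1, SLC30A10, SLC39A8 and SLC39A14, belong to these pathways and were read out by RNA-seq of whole liver from 30 lambs. They were chosen by name for what they do, since metals are part of biosolids and sheep liver stores copper. Earlier results of these data were known when they were chosen. All 10 had a row among the 31304 gene rows of the count table, and all 10 were among the 17840 genes that passed the filter on low counts. The lambs were born to ewes that were either unexposed (controls) or exposed during pregnancy to biosolids, which are treated sewage sludge spread on land as fertiliser. There were 8 control females, 8 biosolids females, 7 control males and 7 biosolids males. The labels give no other treatment, no genotype, breed or age, and no litter, so lambs that shared a dam could not be told from unrelated ones. Nothing in the labels gives the metal content of the diet or the liver, and no metal was measured here.

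As background, copper enters the hepatocyte through SLC31A1, is carried by the chaperone ATOX1 to the copper pump ATP7B, and leaves either on ceruloplasmin (CP) in plasma or in bile. Sheep excrete copper into bile poorly and are prone to copper poisoning, which is why these genes are of interest in this species. Zinc is sensed by the transcription factor MTF1, which switches on metallothioneins, small proteins that bind zinc and copper, and the zinc exporter SLC30A1. Manganese and zinc share the importers SLC39A8 and SLC39A14, and manganese leaves through SLC30A10.

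Libraries held 18688079 to 51905219 counts. Ribosomal RNA rows took 0.299% to 7.69% of the counts in 29 libraries and 87.5% in biosolids male 8778. Outside these rows 8778 held 2335475 counts and every other library at least 23122793. Control female 8263 had the lowest median rank correlation with the other libraries after 8778 (0.957, against 0.945 for 8778). Control male 8408 held 302 CPM (the count scaled to library size, by TMM) of LOC101112291, a gene at 318 to 824 CPM in the females and at most 2.05 CPM in the other control males, while a gene found at 18.0 to 34.8 CPM in every male and near 0 in every female was present in 8408 too. Hepatocyte markers (8 tested genes) summed to 58430 to 122695 CPM. The libraries also fell into 2 sets by the mean log2 CPM of 75 cytosolic ribosomal protein genes, with a gap of 0.39 between them where the next largest gap was 0.13. The low set of 13 libraries (6.35 to 6.73) held 2 control females, 2 biosolids females, 5 control males and 4 biosolids males, and the high set of 17 (7.11 to 7.94) held 6, 6, 2 and 3. This split was found in the data and is no group of the study. It is given beside the results it moves with.

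In the sheep assembly ARS-UI_Ramb_v3.0, the build of the file's coordinates, all 10 are annotated as protein coding, and counts were summed over their exons. ATP7B lies on chromosome 10 (21660330 to 21736611), ATOX1 on 5 (60709910 to 60734101), COMMD1 on 3 (46085935 to 46274005) and SLC31A1 on 2 (10464934 to 10499787), each on the minus strand. CP lies on chromosome 1 (239698459 to 239759672, plus strand) and MTF1 on the same chromosome (12603198 to 12649802, minus strand). SLC30A1 (71353458 to 71361070, plus) and SLC30A10 (22658023 to 22695602, minus) share chromosome 12. SLC39A8 lies on chromosome 6 (22787750 to 22870121, plus strand) and SLC39A14 on 2 (43208035 to 43259285, minus strand).

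All 10 genes had counts in every lamb. Compared per length of exon, as median RPKM (the CPM per kilobase of exon) over the 30 lambs, CP was the most abundant at 265, followed by SLC39A14 at 108. ATOX1 (38.8), ATP7B (28.4) and SLC31A1 (19.1), the copper chaperone, pump and importer, came next. SLC30A10 (13.2), SLC30A1 (11.9) and COMMD1 (10.8) lay close together, and SLC39A8 (6.11) and the zinc sensor MTF1 (2.85) were lowest. Neighbours in this order were separated in 28 to 30 of the 30 lambs, with 3 exceptions. ATOX1 lay above ATP7B in 17 of 30 lambs, SLC30A10 above SLC30A1 in 19 and SLC30A1 above COMMD1 in 19, so these levels did not differ beyond their spread. CP stood at percentile 98.9 of the tested genes on this scale and MTF1 at percentile 58.1.

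**Figure D1:**
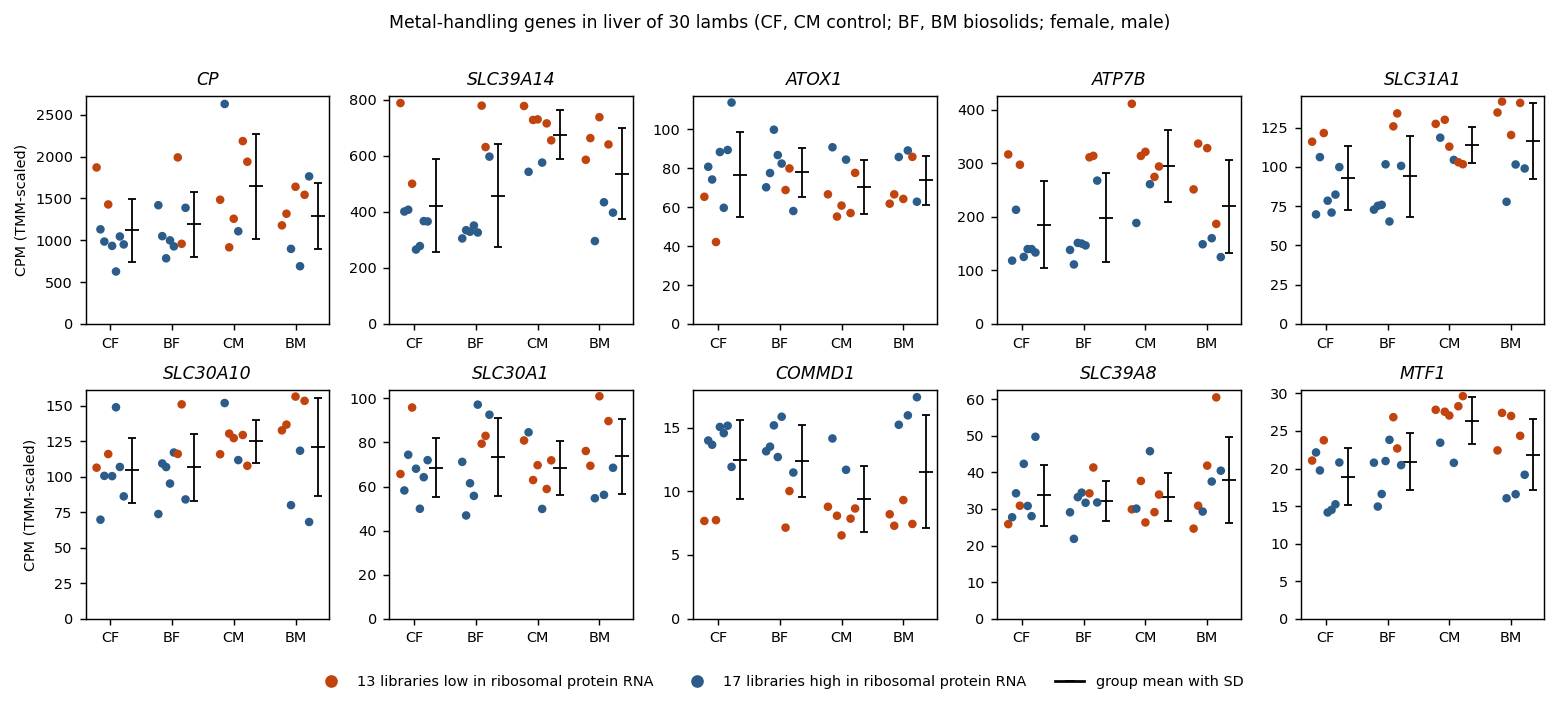
CPM (TMM-scaled, vertical axes from 0) of the 10 genes in each of 30 lambs, by group, with the group mean and SD as bars. Colours mark the 13 libraries low and the 17 high in ribosomal protein RNA. For COMMD1 the colours do not overlap, for SLC39A8 they lie over the same range, and in no gene do control and biosolids lambs of either sex separate.

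Spread between lambs of one group differed by gene. The biological coefficient of variation, edgeR's estimate of the spread beyond counting noise, was 19.8% for MTF1, 22.5% for ATOX1, 22.6% for SLC30A1 and 22.8% for SLC31A1. It was 31.7% for SLC39A14, 33.25% for CP and 36.04% for ATP7B, against a median of 28.4% over all tested genes. The highest lamb had 2.10 times the MTF1 level of the lowest, 3.70 times the ATP7B level and 4.20 times the CP level, the widest range of the 10.

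The copper importer SLC31A1 was at nearly the same level in exposed and control lambs. It ranged from 69.8 to 122 CPM in control females (median 91.2) and from 65.3 to 134 in biosolids females (median 88.3). In control males it ranged from 102 to 130 (median 113) and in biosolids males from 77.8 to 142 (median 120). The groups overlapped within each sex. The fold difference over both sexes was 1.02 (95% confidence interval 0.864 to 1.19).

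The chaperone ATOX1, which hands copper to ATP7B, had medians of 77.5 CPM in control females, 78.8 in biosolids females, 66.6 in control males and 66.6 in biosolids males. Its lowest and highest lambs, at 42.1 and 114 CPM, were both control females. Over both sexes exposed lambs had 1.03 times the control level (0.880 to 1.21).

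ATP7B, the pump that loads ceruloplasmin and exports copper to bile, had the widest spread within groups by the coefficient of variation. Control females ran from 118 to 317 CPM (median 140) and biosolids females from 111 to 314 (median 151), so these groups covered the same range. Control males ran from 189 to 411 CPM (median 294) and biosolids males from 125 to 337 (median 187). In each female group 5 of 8 lambs lay between 111 and 151 CPM, and the highest 2 lay between 297 and 317. Exposed males had 0.745 times the control level (0.504 to 1.10), and in females the ratio was 1.07 (0.745 to 1.54).

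COMMD1, a partner of ATP7B in copper excretion whose loss causes copper toxicosis in dogs, had medians of 13.8 CPM in control females and 12.9 in biosolids females. The medians were 8.65 CPM in control males and 9.31 in biosolids males. The ranges overlapped in both sexes (7.67 to 15.2 and 7.15 to 15.9 in females, 6.54 to 14.2 and 7.30 to 17.4 in males). Exposed males had 1.21 times the control level (0.885 to 1.64) and exposed females 0.992 times (0.746 to 1.32).

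CP, the copper-carrying ferroxidase of plasma, was at 626 to 1869 CPM in control females (median 1015) and 784 to 1989 in biosolids females (median 1023). Control males were at 915 to 2628 CPM (median 1484) and biosolids males at 689 to 1763 (median 1316). The 3 highest lambs of the study included control males 8364 and 8425. Exposed males had 0.784 times the control level (0.547 to 1.12), and exposed females 1.06 times (0.757 to 1.49).

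Among the zinc genes, the sensor MTF1 was at 14.1 to 23.8 CPM in control females (median 20.3) and 14.9 to 26.8 in biosolids females (median 20.9). Control males were at 20.8 to 29.6 CPM (median 27.6) and biosolids males at 16.0 to 27.4 (median 22.4). In control males 5 of 7 lambs lay between 27.1 and 29.6 CPM, above the highest female of either group. Exposed males had 0.831 times the control level (0.677 to 1.02). The zinc exporter SLC30A1, a target of MTF1, had medians between 66.9 and 75.3 CPM in the 4 groups, and exposed lambs of both sexes together had 1.07 times the control level (0.915 to 1.26).

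Of the manganese genes, the importer SLC39A14 was at 265 to 788 CPM in control females (median 384) and 305 to 778 in biosolids females (median 343). Control males were at 542 to 777 CPM (median 715) and biosolids males at 295 to 737 (median 585). Only control female 8245 among the control females reached the range of the control males. Exposed males had 0.795 times the control level (0.565 to 1.12). Its relative SLC39A8 had medians from 30.1 to 37.5 CPM in the 4 groups, with the highest lamb, at 60.5 CPM, biosolids male 8770. The exporter SLC30A10 had medians of 104, 108, 127 and 133 CPM in control females, biosolids females, control males and biosolids males, and exposed lambs had 0.995 times the control level over both sexes (0.841 to 1.18).

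Whether maternal exposure changed these genes was tested with edgeR's quasi-likelihood test over all 17840 genes, with Benjamini-Hochberg adjustment and a call at an adjusted p under 0.05. None of the 10 passed in females, in males, over both sexes or for the interaction of exposure and sex, and neither did any other gene (0.0% of tested genes in each). The smallest adjusted p among the 10 was 1 in females, 0.816 in males, 0.943 over both sexes and 0.951 for the interaction. At an unadjusted p under 0.05 the counts were 0, 0, 0 and 1 of 10, where 3.65%, 5.44%, 4.3% and 3.63% of all tested genes passed. DESeq2 and limma voom also called none of the 10 in these 4 comparisons. Log2 differences ran from -0.07 (SLC39A8) to 0.14 (MTF1) in females, with a median of 0.06 against -0.02 over all tested genes. In males they ran from -0.42 (ATP7B) to 0.27 (COMMD1), with a median of -0.01 against 0.01 over all tested genes. The widest 95% intervals reached from -0.99 to 0.72 in males and from -0.43 to 0.63 in females, so a log2 change of 1 lay outside the interval of every member in both sexes.

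The gene with the smallest p for exposure in males and for the interaction was MTF1. Its log2 difference was -0.27 ± 0.15 (SE) in males and 0.14 ± 0.14 in females, and the interaction (male minus female effect) was -0.41 ± 0.20 (unadjusted p = 0.0466, adjusted p = 0.951 by edgeR's quasi-likelihood test). MTF1, ATP7B, CP and SLC39A14 were each lower in exposed than in control males on average and slightly higher in exposed than in control females. For ATP7B, CP and SLC39A14 the interaction was -0.52, -0.44 and -0.45, with unadjusted p-values of 0.174, 0.220 and 0.186. These fell short of the threshold. Without libraries 8778, 8263 and 8408 the difference in males was -0.29 for MTF1, -0.36 for ATP7B, -0.52 for CP and -0.31 for SLC39A14, and the interaction was -0.48, -0.39, -0.61 and -0.42 (adjusted p = 0.998 for each).

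The male differences are given here beside the library sets. The ribosomal protein mean was 7.05 ± 0.70 (SD) in biosolids males and 6.75 ± 0.39 in control males, with 4 of 7 and 5 of 7 lambs in the low set. With that mean as a term in the fit, the log2 difference for exposure in males was -0.20 for ATP7B, -0.15 for SLC39A14, -0.17 for MTF1 and -0.29 for CP. Within the low set (4 biosolids, 5 control males) and the high set (3 against 2), with no test made, ATP7B differed by -0.25 and -0.62, CP by -0.08 and -0.73, SLC39A14 by -0.14 and -0.59, and MTF1 by -0.15 and -0.36. The signs were alike in both sets, and the differences were larger in the high one. The high set held 8778 among its 3 biosolids males and 8408 among its 2 control males. For CP those 2 control males were 8364 at 2628 CPM and 8408 at 1107 CPM. All 8 hepatocyte markers were also lower on average in exposed males (median log2 difference -0.15, none at an unadjusted p under 0.05). Their part in the result was not tested.

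**Figure D2:**
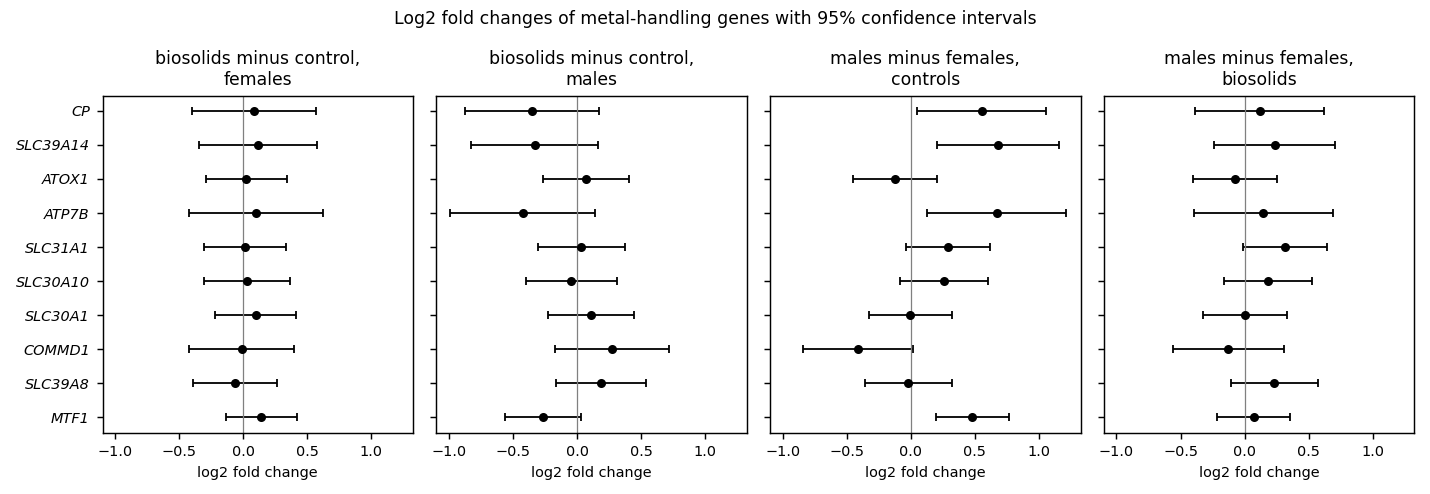
Log2 fold changes (horizontal axes) of the 10 genes with 95% confidence intervals from the edgeR fit, for exposure in females and in males and for males against females in control and in biosolids lambs. Intervals for exposure all include 0, and in controls those of MTF1, SLC39A14, ATP7B and CP lie above 0 before adjustment.

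The sexes were compared within each exposure group. In controls, males had more MTF1 (log2 difference 0.48 ± 0.14 SE, 1.39-fold, adjusted p = 0.198), SLC39A14 (0.68 ± 0.23, 1.60-fold, adjusted p = 0.211), ATP7B (0.67 ± 0.27, 1.59-fold, adjusted p = 0.219) and CP (0.55 ± 0.25, 1.47-fold, adjusted p = 0.240) on average than females. None passed edgeR's threshold, where 0.0841% of genes did. At an unadjusted p under 0.05 these 4 of 10 passed, where 18.9% of all tested genes passed. COMMD1 had an average log2 difference of -0.41 ± 0.21 (adjusted p = 0.278), and the median of the 10 was 0.28 against -0.04 over all genes. In biosolids lambs the same comparison gave 0.07 for MTF1, 0.23 for SLC39A14, 0.15 for ATP7B and 0.12 for CP, with 0 of 10 at an unadjusted p under 0.05 (4.85% of all genes) and a smallest adjusted p of 0.969 (0.0953% of genes were called). The interaction above is the test of whether these differences between the sexes differ with exposure.

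The call for MTF1 in controls depended on the tool. With limma voom and sample quality weights its log2 difference was 0.55 and its adjusted p 0.0499, the only passing value in 37 alternative fits, whose adjusted p ran from 0.0499 to 0.767. Without libraries 8778, 8263 and 8408 the difference between the sexes in controls was 0.56 for MTF1 (adjusted p = 0.211), 0.70 for SLC39A14, 0.62 for ATP7B, 0.62 for CP and -0.45 for COMMD1.

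The library sets were uneven between the sexes in controls, with 5 of 7 control males but 2 of 8 control females in the low set. With the ribosomal protein mean as a term in the fit, the log2 difference was 0.28 for MTF1, 0.36 for SLC39A14, 0.29 for ATP7B, 0.46 for CP and -0.04 for COMMD1. Within the low set (5 control males, 2 control females) MTF1 differed by 0.33 on the log2 scale and within the high set (2 against 6) by 0.34. The other genes were less even. ATP7B differed by 0.06 and 0.64, SLC39A14 by 0.20 and 0.71, and CP by -0.14 and 0.88 in the low and high sets. No test was made within the sets, and the high set held control male 8408 and control female 8263. As the tissue was bulk liver, fewer cells of a type and less RNA per cell cannot be told apart in any of these values.

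Levels were also set side by side in the 2 library sets, with no test. COMMD1 was at 6.54 to 10.02 CPM in the 13 low libraries and at 11.5 to 17.4 CPM in the 17 high ones, without overlap. In the opposite direction, ATP7B was at 305 ± 51.1 CPM (SD, n = 13) in the low and 160 ± 46.5 (n = 17) in the high libraries, and SLC39A14 at 687 ± 84.5 and 386 ± 100.1 CPM. MTF1 (25.8 ± 2.66 and 18.8 ± 3.20) and SLC31A1 (124 ± 12.9 and 88.3 ± 16.3) followed ATP7B, and ATOX1 (65.5 ± 11.4 and 82.0 ± 14.3) followed COMMD1. SLC39A8 was at 34.4 ± 9.59 and 34.0 ± 7.14 CPM, a difference smaller than its spread. The r of COMMD1 with the ribosomal protein mean, by which the sets were cut, was 0.93 over 30 lambs (log2 CPM centred on group means). How many of all tested genes do not overlap between the sets was not counted, so the separation of COMMD1 has no background beside it. ATOX1 and COMMD1 have the shortest exonic lengths of the 10, at 1958 and 1097 bases. Over all tested genes the median correlation with the ribosomal protein mean was 0.16 for genes of 1000 to 2000 bases, where ATOX1 and COMMD1 lie (62.9% of genes above 0). It was 0.44 under 1000 bases, -0.05 from 2000 to 4000, -0.09 from 4000 to 8000 and -0.01 from 8000 bases up. What separates the sets was not tested.

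**Figure D3:**
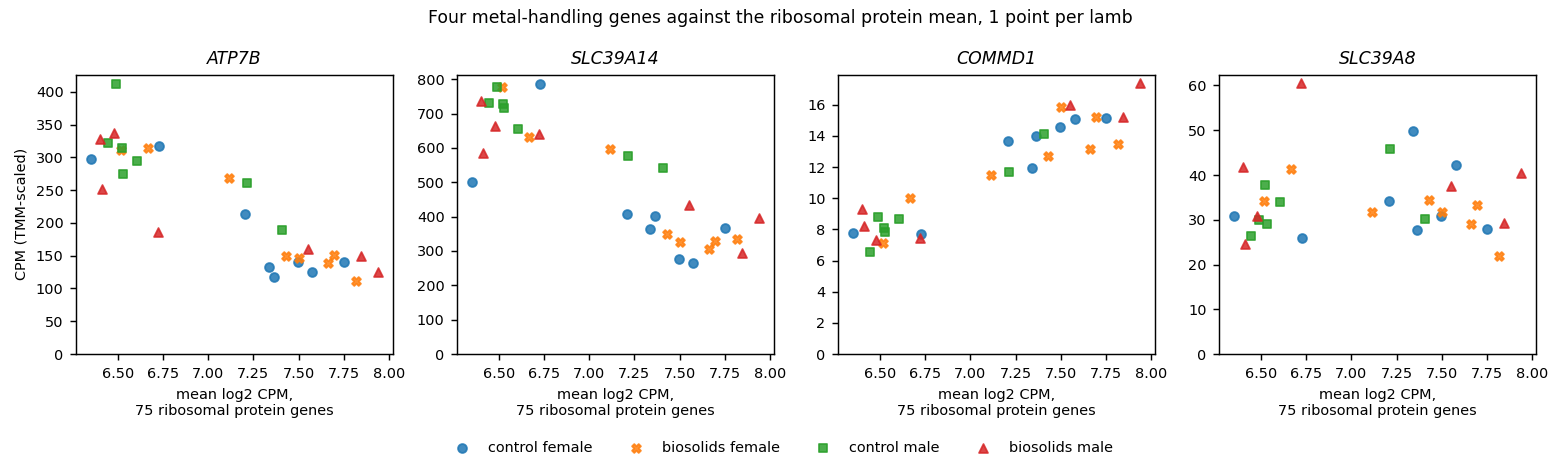
CPM of ATP7B, SLC39A14, COMMD1 and SLC39A8 (vertical axes from 0) against the mean log2 CPM of 75 ribosomal protein genes, with 1 point per lamb and a symbol for each group. Points fall in 2 clusters along the horizontal axis, with COMMD1 at 6.54 to 10.02 CPM in the left one and 11.5 to 17.4 in the right one, ATP7B and SLC39A14 higher in the left one, and SLC39A8 level across both.

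How far the genes varied together from lamb to lamb was measured over all lambs and again within each library set. After centring log2 CPM on the group means, 19 of the 45 pairs among the 10 genes passed a permutation test over 30 lambs (Benjamini-Hochberg adjusted over the 45 pairs, two-sided), 14 with a positive and 5 with a negative correlation. A correlation with the first gene of the pair, of the same sign and at least as far from 0, was found in 1.06% to 18.1% of all tested genes. These shares are for the 19 pairs, for example 14.6% for ATP7B with ATOX1, and leave out correlations of the opposite sign. Within the 13 low libraries and within the 17 high ones, 0 of 45 passed (smallest adjusted p 0.945 and 0.398), and the median absolute r was 0.21 and 0.27 against 0.41 over all. At an unadjusted p under 0.05, 1 pair passed in the low and 4 in the high set. Each set holds fewer lambs, with groups as small as 2, and was cut on a mean that several of the 10 genes follow. A pass was therefore harder within a set, and 0 of 45 does not show that the correlations were absent there.

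ATP7B and SLC39A14 were the closest pair, with Pearson r = 0.87 and Spearman rho = 0.86 over 30 lambs (permutation p = 1e-05 for both, the smallest the 100000 resamples can give, adjusted 7.5e-05). Without the 2 lambs farthest from the median ATP7B level r was 0.85, and without 8778 it was 0.87. In the low set r was 0.36 and in the high set 0.64. A positive r at least this high with ATP7B was found in 1.22% of all tested genes.

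ATP7B and its partner COMMD1 ran opposite to each other, with r = -0.80 and rho = -0.80 over 30 lambs (permutation p = 1e-05, adjusted 7.5e-05) and r = -0.73 without the 2 farthest lambs. Within the high set r was -0.48 (rho = -0.42), of the same sign, and within the low set it was 0.25, neither past the threshold. For ATP7B and its chaperone ATOX1 r was -0.55 over all (rho = -0.50, permutation p = 0.00273, adjusted 0.0102), with -0.43 without the 2 farthest lambs and -0.23 and -0.32 within the sets. For MTF1 and its target SLC30A1 r was 0.65 (rho = 0.60, permutation p = 0.00023, adjusted 0.00115), with 0.55 without the 2 farthest lambs and 0.24 and 0.58 within the sets. SLC39A8 was correlated with none of the other 9 at the threshold.

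**Figure D4:**
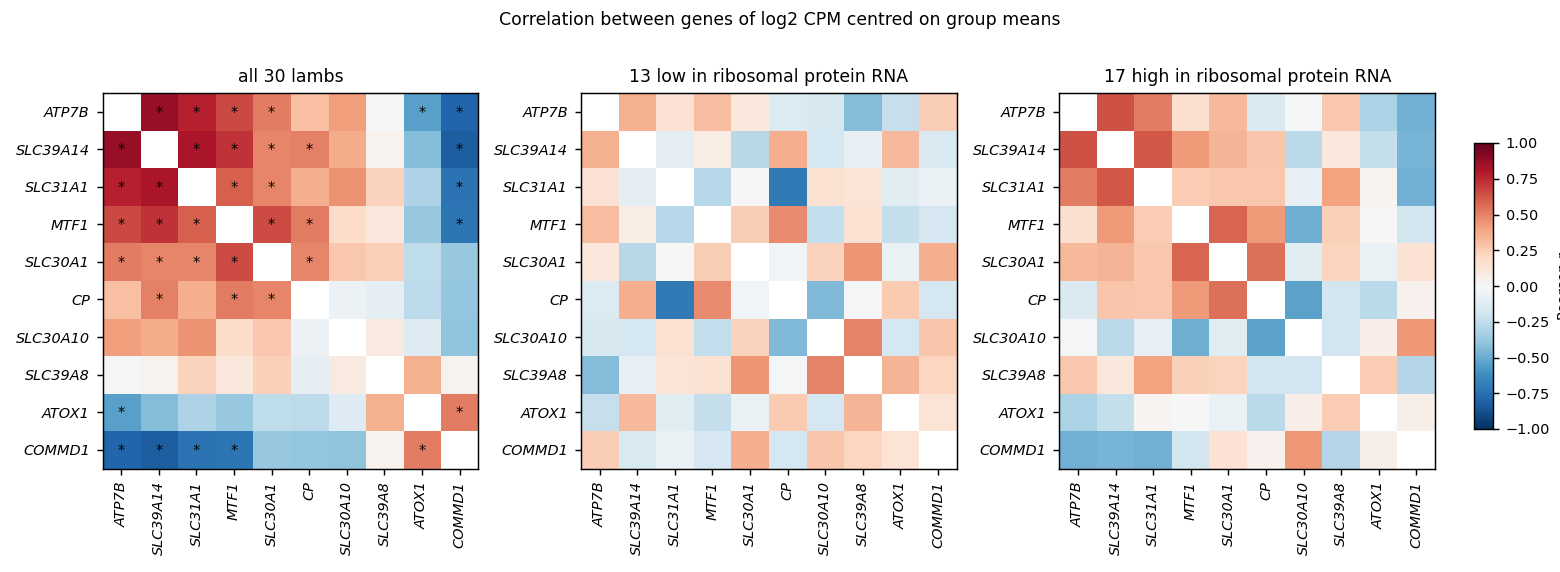
Pearson correlations between the 10 genes of log2 CPM centred on group means, in all 30 lambs and within the 13 low and the 17 high libraries, from -1 (blue) to 1 (red), with stars for pairs that passed at an adjusted p under 0.05. The left panel holds stars for 19 pairs and the others for 0.

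CP, itself known to rise in the acute phase, went with the acute phase genes. Its r with the mean of 15 acute phase genes (CP is not among them) was 0.85 over 30 lambs (rho = 0.87, permutation p = 1e-05, adjusted over 70 relations 5.83e-05), and 0.81 without the 2 farthest lambs. It was 0.80 in the low set and 0.83 in the high set (unadjusted permutation p = 0.00256 and 0.00626, adjusted 0.128 and 0.146). SLC39A14 also passed over all lambs, with r = 0.55 and rho = 0.47 (adjusted permutation p = 0.0103 and 0.0324). MTF1 passed by rho alone, with r = 0.46 and rho = 0.51 (adjusted permutation p = 0.055 and 0.0260). The genes nearest to CP by rank over the 30 lambs were FGG, the fibrinogen gamma chain (rho = 0.84), and ITIH4, an acute phase protein (0.79). The acute phase list itself was lower in exposed than in control males for 14 of 15 genes (median log2 difference -0.44). Of these, 6 of 15 were lower at an unadjusted p under 0.05, where 2.15% of all tested genes were. It was higher in control males than in control females for 14 of 15 (median 0.59), with 11 of 15 at an unadjusted p under 0.05, where 7.74% of all tested genes were higher. As genes of 1 response, the 15 are not separate evidence. In the low set the list mean was 10.11 to 10.58 log2 CPM in 5 control males and 9.88 and 10.32 in 2 control females. In the high set it was 9.93 and 10.79 in 2 control males and 9.09 to 9.86 in 6 control females, with no test made. The only called gene of the list was LCN2, an iron-binding acute phase protein, in control males against control females (log2 difference 1.43 ± 0.28, adjusted p = 0.0216). Over 37 alternative fits that adjusted p ran from 0.000422 to 0.0833, and 29 passed. In exposed against control males the LCN2 log2 difference was -1.41 ± 0.29 (adjusted p = 0.144 by edgeR's quasi-likelihood test and 0.00828 by DESeq2), the only passing value of 38 alternative fits.

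SLC31A1 went with the hepatocyte markers. Its r with the mean of the 8 hepatocyte markers was 0.87 over all lambs (rho = 0.84, permutation p = 1e-05, adjusted 5.83e-05), 0.84 without the 2 farthest lambs, and 0.80 and 0.75 within the low and high sets (adjusted permutation p = 0.277 and 0.0693). For ATP7B r with these markers was 0.77 over all lambs, and 0.23 and 0.51 within the sets. For SLC39A14 it was 0.79 over all lambs, and -0.12 and 0.68 within the sets. Like these genes, COMMD1 (-0.72), MTF1 (0.51) and SLC30A1 (0.47) passed the adjusted threshold over all lambs. The r of SLC31A1 with the ribosomal protein mean was -0.77 over all lambs.

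The genes most like each member by Spearman correlation of log2 CPM over the 30 lambs, with no test, were as follows. ATP7B was closest to SLCO2B1 (0.96) and ARAF (0.95), SLC39A14 to TRAP1 (0.94) and PLG (0.92), and SLC31A1 to PIGN (0.94) and ASPH (0.93). COMMD1 was closest to ATP6V1G1 (0.91) and PCBD2 (0.90), MTF1 to GID4 and ERCC6 (both 0.87), and ATOX1 to the ribosomal protein gene RPL10 (0.83) and CCDC167 (0.80). For SLC30A10 they were YPEL2 (0.75) and GATA6 (0.73), for SLC30A1 SEC23A and TMEM135 (both 0.73), and for SLC39A8 RNF14 (0.73) and AGMAT (0.72). All these lambs share the library sets described above.

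Ratios of counts per exonic length within a library set export against uptake with no scaling between libraries. They are used here to compare groups, and no test was made. The ratio of ATP7B to SLC31A1 had a median of 1.38 in control females, 1.60 in biosolids females, 2.02 in control males and 1.41 in biosolids males. The ranges overlapped (1.01 to 2.06, 1.12 to 2.01, 1.20 to 2.44 and 0.953 to 2.06). For manganese, the ratio of SLC30A10 to SLC39A14 was 0.135, 0.143, 0.1002 and 0.127 in the same order. SLC30A1 over SLC39A14, zinc export over import, was 0.149, 0.130, 0.0788 and 0.113. Control males had the most extreme median of each ratio, but no ratio separated them from another group. The manganese and zinc ratios share SLC39A14, so they are not separate results. The low library set held 5 of 7 control males and 2 of 8 control females. Mean ATP7B was 305 CPM in the low and 160 in the high set, and mean SLC39A14 687 and 386 CPM. The part of the library sets in these ratios was not tested.

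The pathways' other genes gave no call either. Of 17 further copper genes tested (such as ATP7A, CCS and the STEAP metal reductases), 6 zinc exporters, 10 zinc importers and 8 manganese genes, none was called in any of the 6 comparisons. In exposed males, 8 of 17, 5 of 6, 2 of 10 and 2 of 8 were higher on average, with medians of -0.05, 0.04, -0.16 and -0.06 on the log2 scale. The lowest p-values came from control males against control females. There STEAP4, a reductase of copper and iron, had a log2 difference of 1.23 ± 0.35 (adjusted p = 0.198), with 109 ± 39.4 CPM (SD) in the females and 256 ± 123 in the males. STEAP3, a related reductase, differed by 0.76 ± 0.22 (adjusted p = 0.198), and the zinc importer SLC39A11 by 0.34 ± 0.16 (adjusted p = 0.250). The importer SLC39A10 had the opposite direction at -0.51 ± 0.16 (adjusted p = 0.198), and in exposed against control males its difference was 0.39 ± 0.16 (unadjusted p = 0.0238, adjusted 0.816). For exposure the smallest p-values in these lists belonged to SOD3, the extracellular copper and zinc superoxide dismutase, and to STEAP2, another metal reductase. SOD3 had a log2 difference of -0.90 ± 0.34 in males (unadjusted p = 0.0131, adjusted 0.816), with 44.96 ± 15.1 CPM in exposed and 84.3 ± 35.4 in control males, and of -0.62 ± 0.23 over both sexes (unadjusted p = 0.0119, adjusted 0.943). STEAP2, at a mean of 0.235 CPM in control females, had 1.20 ± 0.47 in exposed females (unadjusted p = 0.0159, adjusted 1). That rested on 1 lamb, since without biosolids female 8649 the STEAP2 difference was 0.27, and with voom it was 0.55. Among exporters, between the sexes in controls, SLC30A6 and SLC30A9 were at -0.34 ± 0.13 and -0.33 ± 0.14. Of the manganese genes, SLC11A1 (log2 difference -0.81 ± 0.30 in biosolids males against biosolids females, adjusted p = 0.939) and the metal exporter SLC40A1 (-0.33 ± 0.17 in control males against control females) had the smallest p-values.

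The metallothioneins, the best known targets of MTF1, were thinly covered. Of 12 symbols listed, MT3 and MT4 matched a row, at 0 to 0.468 and 0 to 0.0246 CPM, and neither passed the filter. MT1B (chromosome 14, 23519733 to 23521742, minus strand) was added after the table was seen, together with 3 genes without a symbol that flank it within positions 23514101 to 23534018. They are LOC101117184, LOC101117691 and LOC101117955, each annotated as protein coding. The reference table does not name their products, and copies this close could share reads, so their counts are uncertain. MT1B was at 1.01 to 22.7 CPM in control females (median 6.07), 1.54 to 28.5 in biosolids females (median 9.11), 6.96 to 46.0 in control males (median 30.5) and 4.55 to 21.3 in biosolids males (median 12.2). In control males 5 of 7 lambs lay between 25.4 and 46.0 CPM, and 1 biosolids female was the only other lamb to reach that range.

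Exposed males had 0.373 times the MT1B level of control males (log2 difference -1.42 ± 0.57 SE, unadjusted p = 0.0188, adjusted p = 0.816), and control males 3.66 times that of control females (1.87 ± 0.54, unadjusted p = 0.00186, adjusted p = 0.198). The interaction was -1.79 ± 0.77 (unadjusted p = 0.0273, adjusted p = 0.951). The 3 neighbours had the same directions, with log2 differences of -0.93, -1.06 and -0.999 for exposure in males and 1.24, 1.44 and 1.19 between the sexes in controls. As the 4 genes were picked with their values in view and lie side by side, their shared direction is a description and not separate evidence. LOC101117184, the most abundant by CPM, was at 520 ± 226 in control males against 273 ± 127 in biosolids males, 220 ± 131 in control females and 255 ± 180 in biosolids females. None passed the adjusted threshold by edgeR, DESeq2 or voom. In the 2 library sets MT1B was at 15.8 ± 13.3 CPM (low) and 13.9 ± 12.3 (high), a difference smaller than its spread. Within the low and high sets its log2 difference for exposure in males was -1.53 and -1.26, and between the sexes in controls 2.01 and 2.71. Between the sexes in controls the neighbours were less even. LOC101117184 differed by 0.70 and 2.20, LOC101117691 by 0.99 and 2.32, and LOC101117955 by 0.25 and 2.50 in the low and high sets. The low set held 5 control males and 2 control females, the high set 2 and 6, with no test made. Without libraries 8778, 8263 and 8408 the MT1B differences for exposure in males and between the sexes in controls were -1.46 and 1.65 over all lambs left. MT1B was not correlated with MTF1 at the threshold (r = -0.33 over 30 lambs, rho = -0.27, permutation p = 0.0908 and 0.177, adjusted 0.172 and 0.286; r = -0.34 without the 2 lambs farthest from the median).

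**Figure D5:**
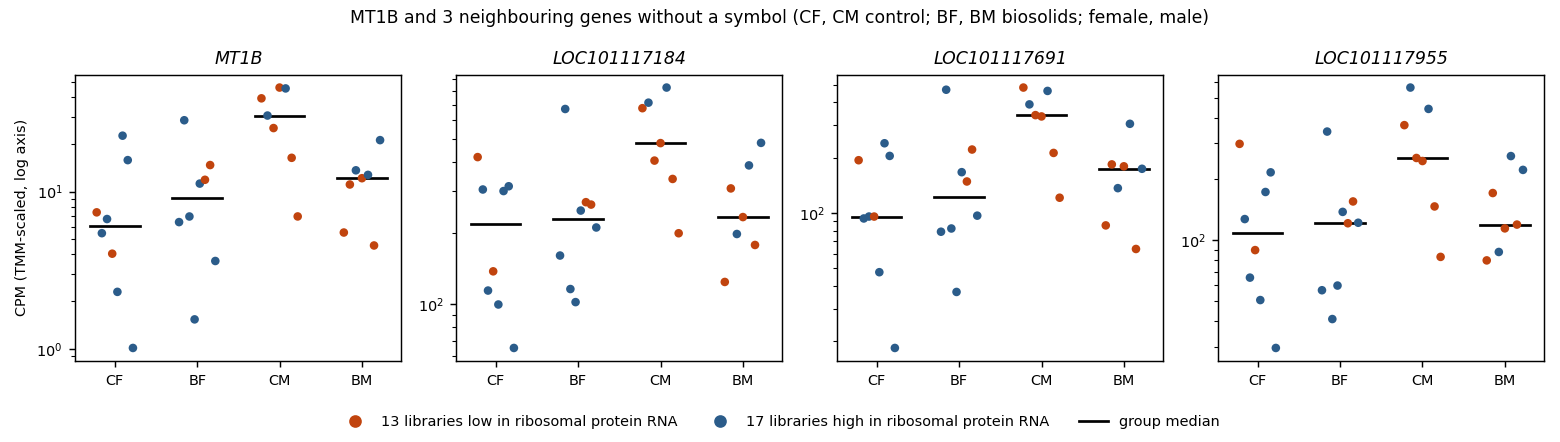
CPM on log axes of MT1B and the 3 flanking genes without a symbol, 1 point per lamb, by group, with the group median as a bar and colours for the library sets. Control males have the highest median in each panel, for MT1B 30.5 CPM against 6.07 to 12.2 in the other groups, and their range overlaps that of every other group.

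Cell type markers were compared in the same groups. In control males against control females, 7 of 7 stellate cell and fibroblast genes were higher on average (median log2 difference 0.55; COL3A1 0.98 ± 0.26, adjusted p = 0.198), and so were 6 of 8 hepatocyte genes (median 0.35), while 3 of 3 macrophage genes were lower (median -0.44; C1QA -0.84 ± 0.31, adjusted p = 0.218). Summed stellate markers ran from 179 to 327 CPM in control females and from 370 to 563 in control males, which do not overlap. How many of all tested genes separate these 2 groups was not counted, and 18.9% were at an unadjusted p under 0.05 between them. Summed macrophage markers ran from 137 to 658 and from 125 to 280 CPM. In controls, 4 of 4 T and NK cell genes were also lower in males (median -0.34). No marker gene was called between exposed and control lambs. On average, 7 of 7 stellate genes were higher in exposed females (median 0.33), 8 of 8 hepatocyte genes were lower in exposed males, and 4 of 4 T and NK cell genes were lower in exposed lambs of each sex (medians -0.42 in females and -0.21 in males). Over both sexes, 3 of 5 cholangiocyte genes were at an unadjusted p under 0.05 for exposure, where 4.3% of all tested genes were. Of these 3, 2 were higher and the other was lower in exposed lambs, so they did not share a direction. Cholangiocyte markers summed to 8.54 to 104 CPM over all lambs, T and NK cell markers to 8.01 to 41.6, and the erythroid gene HBB was at 0 to 3.67. Their part in the differences of the members was not tested.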

How the data were processed

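Whole-liver RNA of 30 lambs was sequenced by the submitters (column-extracted RNA, TruSeq RNA libraries, per the labels' protocols). The deposited values are whole-number gene counts, not normalized, and per the submitters' processing notes the tools included Trimmomatic, STAR and featureCounts 1.5.0-p3, with no settings given. The strand setting of the counting was not stated, so reads of antisense or overlapping genes cannot be told apart. No batch or litter is labelled, and p-values measure the spread between lambs taken as independent. The lambs' tag numbers form separate ranges by exposure, so whatever else went with those ranges cannot be told apart from exposure.

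The 31304 rows were read after joining 7 genes broken over 25 lines. 0 columns lacked a lamb. 28862 genes matched RefSeq symbols of ARS-UI_Ramb_v3.0. Genes were filtered with filterByExpr (17840 kept), scaled by TMM and fitted in edgeR 4.0.16 (R 4.3.3) as 4 group means (robust quasi-likelihood test, 26 residual degrees of freedom). Calls were made at a Benjamini-Hochberg adjusted p under 0.05 over all tested genes. CPM and RPKM were computed from the counts and the file's exonic lengths. Correlations used log2 CPM (prior count 2) centred on group means, with 100000 permutations within groups. DESeq2 1.42.0, limma 3.58.1 (voom), RLE scaling, no filter, ribosomal RNA rows left out, fits within a sex and leaving out each lamb were the alternatives. 2 were added after seeing the data: leaving out 3 libraries, and the ribosomal protein mean as a term. On simulated data over 17840 genes, 100 genes were changed by 1 on the log2 scale and 100 by 2. Of those changed by 1, 70 were recovered in females and 60 in males, and of those changed by 2, 95 and 92. Recovery after Benjamini-Hochberg adjustment depends on how many genes are changed, and here at least 100 were. These rates therefore do not give the chance of a call for the members in the lambs' data.

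The 10 genes and the lists were chosen with earlier results of these data known. Named were all 10 genes, the called genes of each pathway list or otherwise the 2 with the smallest p in any comparison, the marker genes that stood out between the sexes, SOD3 and STEAP2 (chosen after their values were seen), and the 2 genes with a symbol nearest to each of the 10. MT1B and its neighbours, and the split by ribosomal protein level, were chosen after their values were seen.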

Additional observations from a re-analysis of the deposited data

Results flagged for a closer look

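Within the 4 groups, 4 of 56 sets of values of the 10 genes and the 4 genes around MT1B held a lamb that stood far from the rest of its group, where chance alone flags about 1 in 20. Control female 8245 had 788 CPM of SLC39A14, while the next control female had 500 CPM. Biosolids female 8649 was the highest of its group for all 3 genes without a symbol that flank MT1B, with 671 CPM of LOC101117184, 469 CPM of LOC101117691 and 342 CPM of LOC101117955. It was also the highest biosolids female for MT1B, at 28.5 CPM, and the lowest for ATP7B, at 111 CPM.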

How the results depend on the processing

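No paired analysis was possible because the lamb numbers are animal tags and no group shares a number with another. No member was called in any comparison under any alternative, leave-one-out fits included, except MTF1 between the sexes in controls with voom (1 member called). Over all genes, DESeq2 called 4 for exposure in males, 4 over both sexes and 1 for the interaction, where edgeR's quasi-likelihood test called 0. Between the sexes in controls edgeR called 15, DESeq2 54, voom 64 and the fit without the 3 doubted libraries 23. Leaving out 1 lamb gave 10 to 23 there, with 23 without control female 8245.

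Log2 differences near 0 changed sign. None of these was called, and the cause was not tested. For exposure in females voom gave ATP7B -0.062, COMMD1 0.057, SLC31A1 -0.13, SLC30A10 -0.0091 and SLC39A14 -0.014, and leaving out the 3 libraries gave COMMD1 0.018, SLC31A1 -0.033 and SLC30A10 -0.033. For exposure in males SLC30A10 was 0.028 without the 3 libraries, and with the ribosomal term it was 0.0013 and ATOX1 -0.015. Over both sexes the ribosomal term gave COMMD1 -0.016, MTF1 0.0041 and SLC30A10 0.021, no filter gave SLC30A10 0.0046, and voom gave SLC31A1 -0.036. For the interaction the ribosomal term gave ATOX1 -0.031, and leaving out the 3 libraries gave SLC30A1 -0.016 and SLC30A10 0.061. Between the sexes in controls ATOX1 was 0.043 with the ribosomal term and SLC30A1 0.023 without the 3 libraries. In biosolids lambs the ribosomal term gave ATP7B -0.0698, ATOX1 0.012, COMMD1 0.0400, MTF1 -0.061 and SLC30A1 -0.085, and leaving out ribosomal RNA rows gave SLC30A1 -0.0015. Without 8778 the correlation of ATP7B with SLC39A8 was 0.0075 and that of CP with SLC30A10 0.058.

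Leaving out 1 lamb at a time, these lowest and highest log2 differences lay on both sides of 0. For exposure in females they were -0.024 and 0.25 for ATP7B, -0.067 and 0.13 for ATOX1, -0.089 and 0.073 for COMMD1, -0.079 and 0.076 for SLC31A1, -0.061 and 0.23 for CP, -0.057 and 0.13 for SLC30A10, -0.13 and 0.036 for SLC39A8, and -0.038 and 0.31 for SLC39A14. For exposure in males they were -0.12 and 0.052 for SLC30A10 and -0.021 and 0.11 for SLC31A1. Over both sexes they were -0.051 and 0.046 for SLC30A10, -0.023 and 0.061 for SLC31A1, and -0.011 and 0.11 for SLC39A8. For the interaction they were -0.056 and 0.14 for ATOX1, -0.16 and 0.019 for SLC30A10, -0.085 and 0.086 for SLC30A1, and -0.044 and 0.11 for SLC31A1. Between the sexes they were -0.0703 and 0.0812 for SLC30A1 and -0.11 and 0.082 for SLC39A8 in controls, and -0.087 and 0.069 for SLC30A1 in biosolids lambs. Depth limited 8778 most, where 2335475 counts lay outside ribosomal RNA.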
